A study of Mus musculus with 6 samples.

Results

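Chemokines are small secreted proteins that guide migrating cells, and each acts through G protein-coupled receptors on the cell that responds. They were examined here in the inner enamel epithelium (IEE), the cell layer of the tooth germ that later becomes the ameloblasts that make enamel. The members were all genes of the table whose symbol starts with Cxcl, Cxcr, Ccl, Ccr or Ackr followed by a digit, or with Cx3c or Xcr. This naming rule, which uses no measured value, found 53 of the 18152 genes listed. Of these members, 32 are ligands and 21 are receptors, of which 4 are atypical receptors that bind chemokines without the usual G protein response.

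The study dissected the IEE of the mandibular first molar (MM1) by laser capture from C57BL/6J-background mice at E18.5 and sequenced its RNA to look for changes downstream of *Kdf1*, an epithelial differentiation regulator. Control libraries (n = 3) came from Kdf1 fl/fl mice, labelled WT in the sample descriptions, and cKO libraries (n = 3) came from K14-Cre;Kdf1 fl/fl mice. Both groups therefore carry the floxed alleles, and only the cKO group carries the Cre. The keratin 14 promoter drives this Cre, so recombination is directed to keratin 14-expressing epithelium and not to the mesenchyme, vessels or blood cells of the tooth germ. The sources call the libraries biological replicates without saying whether each came from 1 animal, so p-values measure the spread between these samples.

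*Kdf1* was at 52.5, 44.3 and 52.7 CPM (counts-per-million) in control 1, 2 and 3 and at 0, 0.0629 and 0 CPM in cKO 1, 2 and 3, which matches the labels. Libraries held between 14713918 and 16675133 counts, so that a count of 0 allows a level of up to 0.182 to 0.198 CPM. This limit covers counting error only, since PCR copies are not independent molecules. The dental epithelium markers were well detected, with summed levels of 12680 to 28300 CPM in the control libraries and 5700 to 9739 CPM in the cKO libraries. Their sum was thus lower in every cKO library. Of these 11 markers, 6 were below in every cKO library and none above, where 16.2% and 14.5% of all genes tested were. The enamel matrix gene *Amelx*, among them, ran from 1244 to 10697 CPM within the control group alone. Markers of other cells were also present in all libraries, and no gene of any marker list was at 0 throughout. Among these, the mast cell, neutrophil, lymphocyte and osteoclast lists had summed levels that were higher in every cKO library, as given beside the results they accompany.

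The chemokine system works in parts. Homeostatic ligands such as Cxcl12 and Cxcl14 are made continuously by stromal or epithelial cells. Inflammatory ligands such as Cxcl1 and Ccl2 are made on stimulation, often through NF-kappaB, and draw neutrophils or monocytes into a tissue. Receptors such as Ccr1 and Cxcr2 are carried mainly by those leukocytes, whereas the atypical receptors Ackr1 to Ackr4 take up, transport or present ligands.

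Promoter sequences are shown first for *Cxcl12* and its receptor *Cxcr4*, whose levels were higher in every cKO library, and then for 3 neighbouring inflammatory ligand genes that held a rarer set of letters. The sequences come from RefSeq on GRCm38.p6, where 40 of the 53 members had a promoter entry. In the first 2 sequences, capitals mark the GC box letters GGGCGG and the TATA box letters TATAAA on either strand. The *Cxcl12* stretch, chr6:117168335-117168534 on the plus strand, ends directly before the transcript start, and the *Cxcr4* stretch, chr1:128592300-128592499, ends there on the minus strand.
Cxcl12: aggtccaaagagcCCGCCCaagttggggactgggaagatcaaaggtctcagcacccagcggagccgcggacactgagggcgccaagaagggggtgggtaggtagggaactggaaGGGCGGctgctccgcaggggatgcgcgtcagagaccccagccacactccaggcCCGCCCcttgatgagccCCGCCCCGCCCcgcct
Cxcr4: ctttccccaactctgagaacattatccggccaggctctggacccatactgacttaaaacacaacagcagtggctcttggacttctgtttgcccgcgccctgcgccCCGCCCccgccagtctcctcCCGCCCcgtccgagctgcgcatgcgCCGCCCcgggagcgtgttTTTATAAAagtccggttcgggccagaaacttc

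*Cxcl12* held 5 GC box matches, some of them overlapping, and no TATA box match, and *Cxcr4* held 3 GC box matches and 2 overlapping TATA box matches. Over the 250 bases before the start, 7 of the 40 members (17.5%) held a GC box match, against 35.4% of the 27025 genes with an entry. A TATA box match was present in 14 of the 40 members (35%), against 14.3% of all genes. *Ackr3*, *Ackr4*, *Ccl9* and *Ccl12* were among the members with a TATA box match.

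The second set of letters searched was of the kind bound by NF-kappaB, GGGA and TTCC separated by any 2 bases, on both strands. It was present before the start of 5 of the 40 members (12.5%), namely *Cxcl1*, *Cxcl2*, *Cxcl3*, *Cxcl10* and *Ccr3*, against 1.36% of all genes. Capitals mark the match in the windows below, which lie on the plus strand at chr5:90891154-90891204 for *Cxcl1*, chr5:90903782-90903832 for *Cxcl2* and chr5:90786008-90786058 for *Cxcl3*.
Cxcl1: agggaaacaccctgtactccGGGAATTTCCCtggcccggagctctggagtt
Cxcl2: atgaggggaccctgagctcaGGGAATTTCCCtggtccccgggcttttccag
Cxcl3: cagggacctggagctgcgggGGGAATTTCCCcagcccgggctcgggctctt

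In all 3 genes the capitals hold 2 matches offset by 1 base, one on each strand, and they began 71 bases before the start of *Cxcl1*, 97 bases before that of *Cxcl2* and 73 bases before that of *Cxcl3*. These ligand genes lie in a row with *Cxcl15*, with no other protein-coding gene between them, and genes of such a row can share ancestry, so they are not independent examples. Outside these windows, in the same 250 bases, *Cxcl2* also held a GC box match and *Cxcl3* a TATA box match, so the letters marked in *Cxcl12* and *Cxcr4* are not confined to those genes. A match of letters is a description and shows no binding.

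Across the 6 libraries, the members summed to 379, 333 and 299 TPM (transcripts-per-million) in control 1, 2 and 3 and to 636, 424 and 524 TPM in cKO 1, 2 and 3. A few genes made up most of this. On this length-corrected scale, the atypical receptor *Ackr3* had the highest mean level of the members in the control group (161 ± 30.7 TPM, SD, n = 3), followed by *Cxcl14* (65.1 ± 10.7 TPM) and *Ccl27a* (49.0 ± 9.08 TPM). The gap between the means of the latter pair is near their SDs, though *Cxcl14* was above *Ccl27a* within each control library. *Ccl27b* (9.59 ± 1.56 TPM), *Cxcl12* (9.49 ± 3.90 TPM) and *Ackr4* (9.11 ± 5.62 TPM) came next and did not differ beyond their spread. In the cKO group *Cxcl12* held the third place, at 69.8 ± 53.4 TPM, close to *Ccl27a* at 65.3 ± 18 TPM.

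A filter on low counts left 18 members for the test and 35 untested. To pass, a gene had to exceed about 0.627 CPM in at least 3 libraries. *Ackr1*, *Ccl6*, *Ccl9* and *Cxcr2* exceeded it in fewer than 3 control libraries, so that they entered with the help of their cKO values. *Cxcr2* exceeded it in no control library, so it entered through its cKO values alone. The criterion required a log2 difference of 1 or more in either direction and a Benjamini-Hochberg adjusted p of at most 0.05. No tested member met it in edgeR, where 0.432% of all 14131 genes tested met it. The lowest adjusted p of a member in edgeR was 0.0680, and 8 of the 18 had an unadjusted p of at most 0.05, against 24.5% of all genes tested. These 8 were *Cxcl12*, *Cxcl14*, *Cxcr4*, *Ackr1*, *Ccl9*, *Ccl6*, *Ccr1* and *Cxcr2*, and all had a higher fitted level in the cKO group. The sources do not say that libraries of the same replicate number were matched. With that number as a block, edgeR called 2 members, *Ccl9* and *Cxcl12*, against a background of 6.09%. DESeq2 called 3 of the 32 members to which it gave an adjusted p, *Ccl9*, *Cxcl12* and *Ackr1*, against a background of 6.81%.

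**Figure D1:**
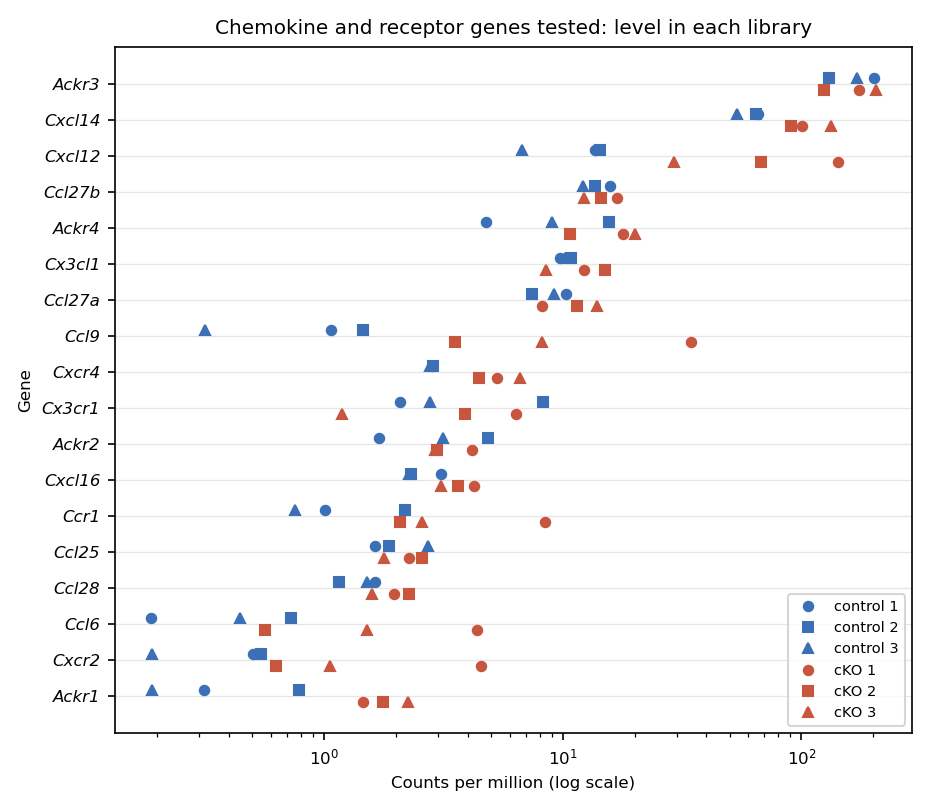
Level of each of the 18 tested chemokine and receptor genes in the 6 libraries, in CPM on a log axis, with control libraries in blue above and cKO libraries in red below each line and the marker shape giving the replicate number. The cKO libraries lie to the right of every control library for 7 genes, *Cxcl12*, *Cxcl14*, *Cxcl16*, *Cxcr4*, *Ccl9*, *Cxcr2* and *Ackr1*.

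Every cKO library was above every control library for 7 of the 18 tested members, while 14.5% of all genes tested showed this. No tested member was below in every cKO library, which held for 16.2% of all genes tested, and the other 11 overlapped. The plot of levels by library shows these 7 genes spread over the whole range of levels. Among the 7, *Ackr1*, *Ccl9* and *Cxcr2* had entered the test with the help of their cKO values. For *Cxcr2*, under the filter limit in every control library, the filter itself kept the groups apart. The count is therefore a description and no test of a shift of the members as a whole.

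**Figure D2:**
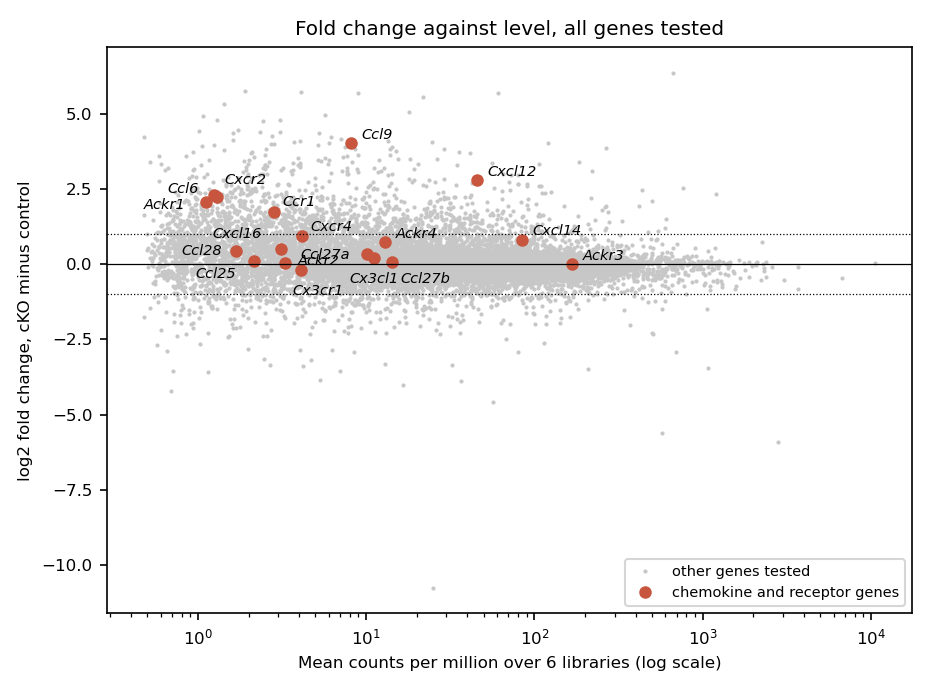
The log2 fold change, cKO minus control, against the mean level over 6 libraries in CPM on a log axis, for all genes tested (grey) and the 18 chemokine and receptor genes (red), with dotted lines at 1 and -1. *Ccl9* at 4.01 and *Cxcl12* at 2.78 lie near the upper edge of the cloud, and *Ackr3* lies at zero; the lowest grey point is *Kdf1*.

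*Cxcl12* (Gene ID 20315) encodes the ligand that retains haematopoietic and progenitor cells near stromal and endothelial cells through the receptor Cxcr4. Its level was 13.7, 14.4 and 6.76 CPM in control 1, 2 and 3 and 143, 67.8 and 29.2 CPM in cKO 1, 2 and 3. The groups did not overlap, yet the cKO libraries themselves spanned a wide range, with cKO 1 highest and cKO 3 lowest. The log2 fold change was 2.78 (SE 0.59), with an adjusted p of 0.0692 in edgeR. The same change met the criterion with the replicate block (log2 fold change 2.59, edgeR adjusted p = 0.00952) and in DESeq2 (adjusted p = 7.05e-06). Between libraries of the same replicate number, which are not known to be matched, the cKO level was 10.4, 4.72 and 4.32 times the control level. Leaving out 1 library at a time gave log2 fold changes from 2.08, without cKO 1, to 3.20, and *Cxcl12* met the criterion in edgeR without cKO 3 (adjusted p = 0.0476).

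Markers of other cells of the tooth germ are given beside *Cxcl12*. The 10 blood vessel endothelium markers summed to 338 to 420 CPM in the control libraries and 389 to 1131 CPM in the cKO libraries, highest in cKO 1, and the 8 pericyte and smooth muscle markers to 449 to 509 and 474 to 1421 CPM, also highest in cKO 1. In both lists cKO 3 lay within the control range. The 11 dental mesenchyme markers summed to 3625 to 20870 CPM and 11580 to 12950 CPM, the latter within the control range. Above in every cKO library were 6 of these 11, 4 of the 8 pericyte markers and 4 of the 10 blood vessel markers. None of these 3 lists had a marker below in every cKO library. Of all genes tested, 14.5% were above and 16.2% below. The 2 genes named next were among those called and do not stand for their whole lists. *Pdgfrb*, a pericyte receptor, was at 38.2, 56.2 and 28.7 CPM in control 1, 2 and 3 and at 273, 151 and 69.1 CPM in cKO 1, 2 and 3. *Prrx1*, a mesenchymal transcription factor, was at 21.9, 40.3 and 15.5 CPM and at 266, 116 and 86.0 CPM. Both run in the order of *Cxcl12* within the cKO group. The part of such cells in the *Cxcl12* difference was not tested, and in these bulk samples more cells of a type and more RNA per cell cannot be told apart.

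*Cxcr4* (Gene ID 12767), the signalling receptor for Cxcl12, was low and even in the control libraries, at 2.83, 2.85 and 2.78 CPM in control 1, 2 and 3. In cKO 1, 2 and 3 it was at 5.32, 4.47 and 6.59 CPM, so that every cKO library was higher. The log2 fold change of 0.95 (SE 0.26) had an adjusted p of 0.0988 in edgeR, 0.0837 with the block and 0.0265 in DESeq2, and lies just under the fold limit. The order of the cKO libraries was not that of *Cxcl12*, since cKO 3 was highest for *Cxcr4* and lowest for *Cxcl12*.

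*Ackr3* (Gene ID 12778) encodes the second receptor for Cxcl12, which takes the ligand up and lowers its amount outside the cell. It was at 201, 131 and 172 CPM in control 1, 2 and 3 and at 174, 124 and 205 CPM in cKO 1, 2 and 3. The groups overlapped fully, and the log2 fold change was -0.002 (SE 0.23, adjusted p = 0.997 in edgeR), a value whose sign changes between alternative fits. In TPM, *Ackr3* was 40.0 to 61.8 times *Cxcr4* in the control libraries and 24.1 to 28.2 times in the cKO libraries. *Cxcl12* in turn was 0.0324 to 0.0901 times *Ackr3* in the control libraries and 0.124 to 0.687 times in the cKO libraries. Neither range overlapped between the groups.

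**Figure D3:**
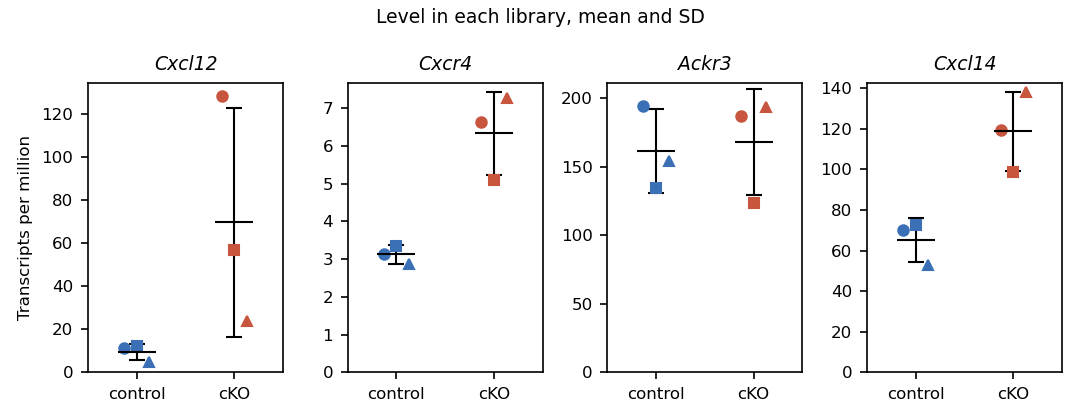
Level of *Cxcl12*, its receptors *Cxcr4* and *Ackr3*, and *Cxcl14* in TPM, with each library as a point (circle, square and triangle for replicates 1, 2 and 3) and the group mean with its SD in black. *Ackr3* averages 161 and 168 in the control and cKO groups, while the cKO points of the other 3 genes lie above all control points and those of *Cxcl12* run from 24.0 to 128.

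*Cxcl14* (Gene ID 57266) encodes a homeostatic ligand made by many epithelia. In TPM it had the highest mean of the ligands in both groups. Its level was 65.9, 64.7 and 53.5 CPM in control 1, 2 and 3 and 101, 90.8 and 133 CPM in cKO 1, 2 and 3. Every cKO library was higher, and in contrast to *Cxcl12* the highest was cKO 3. On the log2 scale the difference was 0.82 (SE 0.17), with an adjusted p of 0.0680 in edgeR, the lowest of the members, of 0.0425 with the block and of 0.00164 in DESeq2, and it stayed under the fold limit in all 3. Leaving out 1 library at a time gave values from 0.66 to 0.96. This was a smaller but more even difference than that of *Cxcl12*, whose SE was 0.59.

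The other ligands typical of epithelia differed little. *Cxcl16*, a membrane-bound ligand that also acts as a scavenger receptor, was at 3.08, 2.30 and 2.27 CPM in control 1, 2 and 3 and at 4.24, 3.65 and 3.10 CPM in cKO 1, 2 and 3. Its groups only just failed to overlap, and the log2 fold change of 0.52 (SE 0.29) had an adjusted p of 0.307 in edgeR. *Cx3cl1*, the membrane-anchored ligand of Cx3cr1, was at 9.73, 10.8 and 10.2 CPM and at 12.3, 15.1 and 8.50 CPM. Its groups overlapped, and the log2 fold change was 0.22 (SE 0.24, adjusted p = 0.607 in edgeR). *Ccl28* and *Ccl25*, ligands made by mucosal and thymic epithelium, were at 1.15 to 2.72 CPM in all libraries, with log2 fold changes of 0.43 and 0.09 and overlapping groups. *Cxcl15*, a ligand of lung epithelium, had a single count in cKO 1 and in cKO 3 and none elsewhere.

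*Ccl27a* (Gene ID 20301), the skin-homing ligand of epidermal keratinocytes, was at 10.3, 7.45 and 9.16 CPM in control 1, 2 and 3 and at 8.16, 11.5 and 14 CPM in cKO 1, 2 and 3. Its log2 fold change was 0.32 (SE 0.26, adjusted p = 0.470 in edgeR), and the groups overlapped. Its near copy *Ccl27b* ran from 12.2 to 15.8 CPM in the control libraries and from 12.3 to 17 CPM in the cKO libraries, a log2 difference of 0.07 (SE 0.19), and edgeR gave an adjusted p of 0.853. Both values are uncertain. *Ccl27a* overlaps *Il11ra1* in the RefSeq annotation and *Ccl27b* overlaps *Il11ra2*, named here for that overlap, and the counting of shared reads is not given in the sources used here. Their receptor *Ccr10* was the only member below in every cKO library, at 12, 12 and 5 counts in control 1, 2 and 3 and 4, 2 and 0 counts in cKO 1, 2 and 3, too few for the test.

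Among the inflammatory CC ligands, which attract monocytes and other leukocytes, *Ccl9* (Gene ID 20308) was the one with the highest counts. Its product acts through Ccr1 and is known from macrophages and osteoclasts. *Ccl9* was at 1.07, 1.45 and 0.316 CPM in control 1, 2 and 3 and at 34.5, 3.52 and 8.17 CPM in cKO 1, 2 and 3. The groups did not overlap, and cKO 1 stood far above the other cKO libraries. Its log2 fold change was 4.01 (SE 0.96), with an adjusted p of 0.0813 in edgeR, of 0.0476 with the block and of 2.90e-05 in DESeq2. Without cKO 1 it was 2.63, the lowest of the 6 values with a library left out, the highest being 4.51.

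*Ccl6*, a ligand of the same receptor that lies next to *Ccl9* with no other protein-coding gene between, had the same order of cKO libraries. It was at 0.188, 0.727 and 0.442 CPM in control 1, 2 and 3 and at 4.37, 0.566 and 1.52 CPM in cKO 1, 2 and 3, so that cKO 2 fell within the control range. On the log2 scale the difference was 2.22 (SE 0.82), for which edgeR gave an adjusted p of 0.160, and 1.19 without cKO 1. *Ccr1*, the receptor of both, was at 1.00, 2.18 and 0.758 CPM and at 8.42, 2.08 and 2.57 CPM. Its groups overlapped, its log2 fold change was 1.72 (SE 0.67, adjusted p = 0.172 in edgeR), and without cKO 1 it was 0.83.

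The other 10 CC ligands of this kind were too low for the test. *Ccl12*, a monocyte attractant acting through Ccr2, was the only one above in every cKO library, at 2, 6 and 0 counts in control 1, 2 and 3 and 35, 7 and 10 counts in cKO 1, 2 and 3. *Ccl2* had 6, 2 and 2 counts and 18, 3 and 13 counts, and *Ccl7* had 1, 5 and 2 and 22, 3 and 8 counts, which overlap. These genes lie in a row with *Ccl8* and *Ccl11*, a ligand of eosinophils, and *Ccl11* went the other way in its mean, with 11, 6 and 3 counts and 7, 2 and 6 counts. *Ccl3* reached at most 7 counts, while *Ccl4*, *Ccl5*, *Ccl8*, *Ccl17* and *Ccl24* reached at most 3 counts in any library. Over all 12 CC ligands, the counts summed to 42, 58 and 23 in control 1, 2 and 3 and to 707, 85 and 192 in cKO 1, 2 and 3. Most of the cKO counts were those of *Ccl9* alone, with 17, 24 and 5 counts in control 1, 2 and 3 and 545, 56 and 124 in cKO 1, 2 and 3.

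Several leukocyte receptors were highest in cKO 1. *Cxcr2*, the neutrophil receptor for Cxcl1, Cxcl2 and Cxcl5, was at 0.502, 0.545 and 0.190 CPM in control 1, 2 and 3 and at 4.56, 0.629 and 1.05 CPM in cKO 1, 2 and 3. The groups did not overlap, but cKO 2 lay barely above control 2. As *Cxcr2* was under the filter limit in every control library, the filter itself kept its groups apart. Its fitted log2 difference was 2.31 (SE 0.84), for which edgeR gave an adjusted p of 0.156, and it was 1.03 without cKO 1. *Cx3cr1*, a receptor of macrophages, was at 2.07, 8.24 and 2.78 CPM and at 6.39, 3.90 and 1.19 CPM. Unlike *Cxcr2* it had its highest value in a control library, and its log2 fold change was -0.19 (SE 0.71, adjusted p = 0.893 in edgeR).

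The monocyte receptor *Ccr2* had 1, 6 and 3 counts in control 1, 2 and 3 and 33, 2 and 6 counts in cKO 1, 2 and 3, so that its excess rested on cKO 1. *Ccr3*, the receptor of eosinophils and mast cells, was at 0 in all control libraries and had 12, 0 and 2 counts in cKO 1, 2 and 3. Among other receptors, *Ccr8* and *Xcr1* reached 5 and 6 counts, and *Ccr4*, *Ccr6*, *Ccr7*, *Ccr9*, *Cxcr3*, *Cxcr5* and *Cxcr6*, receptors of lymphocytes, reached at most 3 counts in any library. At this depth lymphocyte receptors were thus near the limit that a count of 0 allows.

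Markers of the cells that carry these receptors are given beside them. The 10 neutrophil markers summed to 5.12 to 6.84 CPM in the control libraries and 33.3 to 96.5 CPM in the cKO libraries. Of the 8 tested ones, 6 were above in every cKO library, against 14.5% of all genes tested. That count is a description only. A gene under about 0.627 CPM in every control library, such as *Ltf*, passes the filter only through its cKO libraries. The 14 macrophage and monocyte markers summed to 49.9 to 120 CPM and 97.6 to 331 CPM, which overlap, the 6 osteoclast markers to 31.3 to 54.0 CPM and 97.8 to 482 CPM, and the 4 mast cell markers to 0.569 to 2.01 CPM and 4.29 to 46.6 CPM. The 10 lymphocyte markers stayed at 0.502 to 0.848 CPM and 1.45 to 4.05 CPM. In all 5 lists cKO 1 was the highest library, as it was for *Ccl9*, *Ccl6*, *Ccr1* and *Cxcr2*. For example, the neutrophil gene *Ltf* was at 0.377, 0.121 and 0.379 CPM in control 1, 2 and 3 and at 5.19, 4.09 and 2.44 CPM in cKO 1, 2 and 3, and the osteoclast protease *Ctsk* was at 22.4, 29.3 and 14.2 CPM and at 279, 77.3 and 57.3 CPM. The part of such cells in the ligand and receptor values was not tested.

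**Figure D4:**
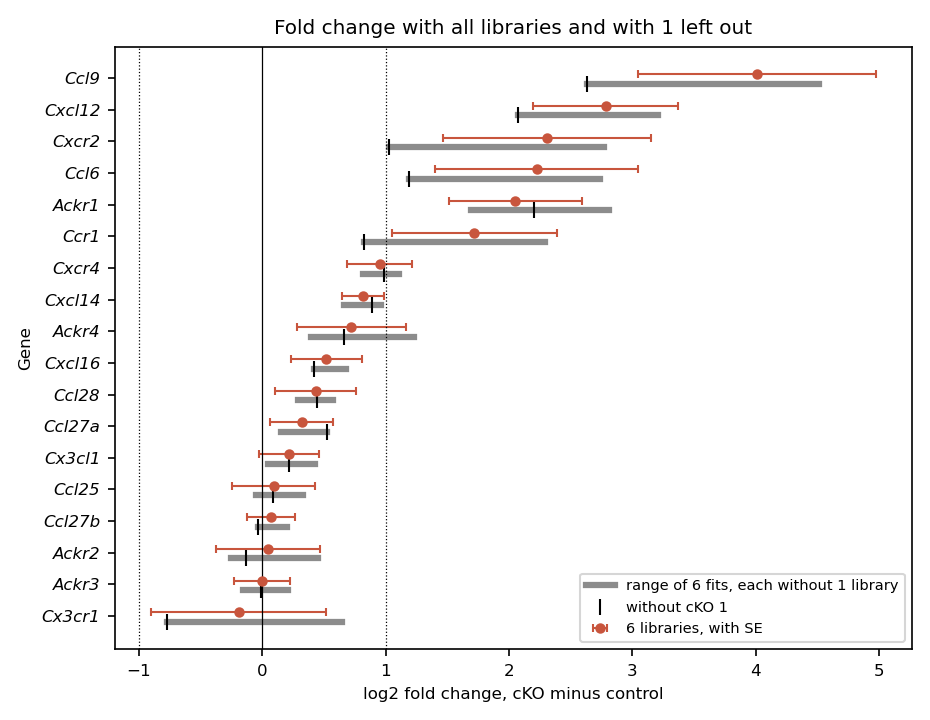
The log2 fold change, cKO minus control, of the 18 tested genes with its SE (red) and the range over 6 fits that each leave out 1 library (grey bar), with a black tick for the fit without cKO 1. The ticks of *Ccl9*, *Cxcl12*, *Cxcr2*, *Ccl6* and *Ccr1* sit at or near the low end of their bars, while those of *Cxcl14*, *Cxcr4* and *Ackr1* lie to the right of the red points.

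Library cKO 1 was the highest of the 6 for 7 of the 18 tested members and for 22 of all 53. Without it, 14 of the 18 tested members had a positive log2 fold change, compared with 16 in the fit of all libraries. In the latter fit, 49.5% of all genes tested were positive. The sign held in all 6 fits with a library left out for 13 of the 18. Among the 18, *Ackr1*, *Ccl6*, *Ccl9* and *Cxcr2* had entered the test with the help of their cKO values. For the other counts the share of all genes was not computed, so all these counts are a description. The plot of the fits with a library left out shows members in which cKO 1 raised the estimate and members in which it did not. *Cxcl14*, *Cxcr4*, *Ackr1*, *Ccl27a* and *Ccl28* were of the second kind.

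The genes of the inflammatory CXC ligands were all under the filter, and Cxcl1, Cxcl2 and Cxcl5 among them are ligands of the neutrophil receptor Cxcr2. *Cxcl1* had 1, 4 and 2 counts in control 1, 2 and 3 and 12, 8 and 7 counts in cKO 1, 2 and 3, and *Cxcl5* had 2, 1 and 0 counts and 9, 2 and 15 counts. *Cxcl1* was above in every cKO library. *Cxcl5* was so on the scaled values alone, since cKO 2 and control 1 tied at 2 counts. The same holds for *Cxcl2*, with 0, 1 and 0 counts and 5, 1 and 1 counts. *Cxcl3* had 2, 2 and 0 counts and 7, 1 and 9 counts, which overlap. The interferon-induced ligands *Cxcl10* and *Cxcl9* reached at most 4 and 2 counts. The 6 genes of this kind summed to 6, 11 and 2 counts in the control libraries and 39, 16 and 34 counts in the cKO libraries, of which *Cxcl1*, *Cxcl2*, *Cxcl3* and *Cxcl10* are the ones with the NF-kappaB-type letters shown above.

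**Figure D5:**
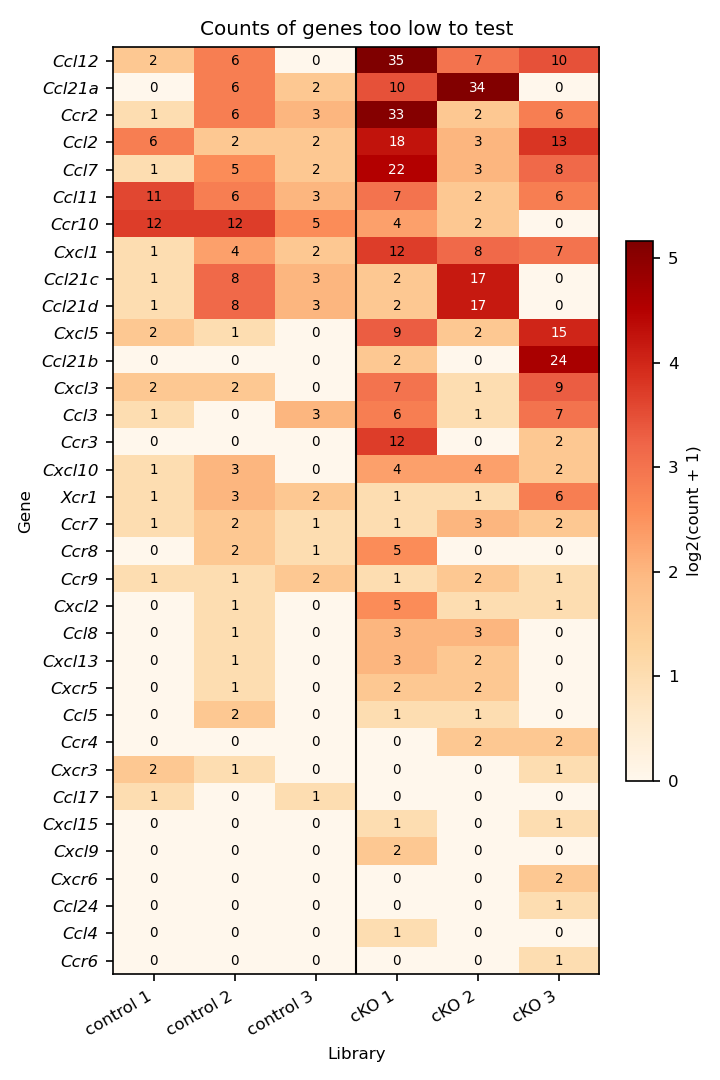
Counts of the chemokine and receptor genes under the filter that are reported here, in the 6 libraries, printed in each cell and shaded by log2(count + 1), with control libraries left of the black line and genes ordered by their total. The highest single value is 35 counts for *Ccl12* in cKO 1, and *Ccr10* is the one gene whose cKO counts all lie below its control counts.

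The 35 untested members together had 53, 93 and 37 counts in control 1, 2 and 3 and 234, 125 and 137 counts in cKO 1, 2 and 3. Their mean was higher in the cKO group for 31 and lower for 4, and 4 were above and 1 below in every cKO library, *Cxcl2* and *Cxcl5* only through the scaling of tied counts. Of all untested genes with a count in any library, 68.8% had a higher mean in the cKO group, 12.7% were above and 2.97% were below in every cKO library. Of all 53 members, 15 had at most 3 counts in every library and 9 were at 0 in every control library, so that many of these differences are of a few counts. The plot of untested counts shows how few rows go beyond such values.

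The lymphoid ligands, which guide lymphocytes and dendritic cells along lymphatic vessels, varied widely between libraries of 1 group. *Ccl21a* had 0, 6 and 2 counts in control 1, 2 and 3 and 10, 34 and 0 counts in cKO 1, 2 and 3. *Ccl21b* was at 0 in all control libraries and had 2, 0 and 24 counts in cKO 1, 2 and 3, the reverse order of *Ccl21a*. *Ccl21c* and *Ccl21d* had identical values in every library, 1, 8 and 3 and 2, 17 and 0 counts. These are near-identical copies between which reads can be split, so their single values are uncertain. Their sum with *Cxcl13*, a B cell attractant that reached at most 3 counts, was 2, 23 and 8 counts in the control libraries and 19, 70 and 24 counts in the cKO libraries, which overlap. The 4 lymphatic endothelium markers summed to 17.3 to 21.5 CPM and 18.9 to 65.4 CPM, which overlap as well, and were highest in cKO 1, whereas this sum was highest in cKO 2.

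The remaining atypical receptors were all lower than *Ackr3* in TPM. *Ackr1* (Gene ID 13349), which carries inflammatory ligands across venular endothelium and is found on red cells, was at 0.314, 0.787 and 0.190 CPM in control 1, 2 and 3 and at 1.46, 1.76 and 2.24 CPM in cKO 1, 2 and 3. Every cKO library was higher, and the log2 fold change was 2.05 (SE 0.54), with an adjusted p of 0.0896 in edgeR, of 0.0551 with the block and of 0.0278 in DESeq2. It was 2.20 without cKO 1 and ran from 1.70 to 2.81 with a library left out. The cKO values rest on 23, 28 and 34 counts in cKO 1, 2 and 3, so their order is not resolved. The blood vessel markers were highest in cKO 1 and lowest in cKO 3 within the cKO group. The 5 erythroid markers overlapped, at 603 to 905 CPM in the control libraries and 568 to 953 CPM in the cKO libraries. The part of such cells in the *Ackr1* difference was not tested.

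*Ackr4* (Gene ID 252837), a scavenger of Ccl19, Ccl21 and Ccl25, was at 4.77, 15.7 and 9.03 CPM in control 1, 2 and 3 and at 17.8, 10.7 and 20.2 CPM in cKO 1, 2 and 3. The groups overlapped through cKO 2, and the fitted log2 difference was 0.72 (SE 0.44), which edgeR gave an adjusted p of 0.348. *Ackr2*, a scavenger of inflammatory CC ligands, was at 1.70 to 4.85 CPM in the control libraries and 2.90 to 4.18 CPM in the cKO libraries, a log2 difference of 0.05 (SE 0.42), and edgeR gave an adjusted p of 0.958. For both genes control 2 was the highest and control 1 the lowest control library.

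Other genes of the chemokine system were counted over 4 lists chosen with earlier results known. None of their tested genes met the criterion in edgeR. With the replicate block 10 did, 8 higher and 2 lower, and in DESeq2 15 did, 13 higher and 2 lower. Of all genes, 6.09% were called with the block (588 higher, 272 lower) and 6.81% in DESeq2 (757 higher, 281 lower), also mostly higher. Of 13 tested genes that process or present chemokines, 6 were above in every cKO library and 1 was below, where 14.5% and 16.2% of all genes tested were. The one below was *Dpp4*, whose product trims the end of Cxcl12 and other ligands and so inactivates them, at 29.3, 16.7 and 16.2 CPM in control 1, 2 and 3 and at 7.78, 4.41 and 8.90 CPM in cKO 1, 2 and 3. Its log2 fold change was -1.56 (SE 0.35), with an adjusted p of 0.0726 in edgeR, 0.0202 with the block and 0.000757 in DESeq2. Every cKO library was thus above all control libraries for *Cxcl12* and below them for *Dpp4*. A link between these differences in RNA was not tested.

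*Mmp9* and *Mmp2*, metalloproteinases that can also cut Cxcl12, were above in every cKO library. *Mmp9* was at 46.1, 33.6 and 15.6 CPM in control 1, 2 and 3 and at 761, 148 and 104 CPM in cKO 1, 2 and 3, in the order of the osteoclast markers within the cKO group, and its log2 fold change of 3.41 (SE 0.84) had an adjusted p of 0.0841 in edgeR and 0.0141 with the block. *Mmp2* was at 69.1, 201 and 62.7 CPM and at 595, 431 and 239 CPM, a log2 difference of 1.92 (SE 0.53), and had an adjusted p of 0.0993 in edgeR and 0.0328 with the block. *Hs3st1*, a heparan sulphate sulphotransferase, differed by 1.30 on the log2 scale (SE 0.37), and its adjusted p was 0.105 in edgeR and 0.0340 in DESeq2.

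In the list of chemokine receptor signalling, 9 of 32 tested genes were above and 3 below in every cKO library, against 14.5% and 16.2% of all genes tested, and the median log2 fold change was 0.04, with -0.004 for all genes tested. The genes with the largest differences among those called by any of the 3 fits were *Rac2* (2.23, SE 0.63), a GTPase of blood cells, *Rgs16* (2.08, SE 0.73), a brake on G protein signalling, *Was* (1.99, SE 0.62), an actin regulator of blood cells, and *Grk3* (1.54, SE 0.46), a kinase that switches receptors off. Their adjusted p in edgeR ran from 0.103 to 0.149. *Rac2*, *Rgs16* and *Was* were highest in cKO 1, while *Grk3* was highest in cKO 2.

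Of 23 tested inducers of chemokine genes, 9 were above and 2 below in every cKO library, with a median log2 fold change of 0.44, against the same 14.5%, 16.2% and -0.004 over all genes tested. *Tlr4*, the receptor for bacterial lipopolysaccharide, had a log2 difference of 1.78 (SE 0.57), *Ifngr1*, a chain of the interferon-gamma receptor, of 1.46 (SE 0.37) and *Nfkbiz*, a co-regulator of NF-kappaB, of 1.42 (SE 0.46), with adjusted p of 0.127, 0.0872 and 0.127 in edgeR. Of 6 tested ligands and receptors outside the naming rule, 3 were above in every cKO library, again with 14.5% as the share of all genes tested. Among these 3 was *Rarres2*, which was under the filter limit of about 0.627 CPM in every control library. It entered the test only through its cKO values, so the filter itself kept its groups apart. *Rarres2*, which encodes the leukocyte attractant chemerin, was at 0.502, 0.606 and 0.379 CPM in control 1, 2 and 3 and at 6.83, 1.89 and 2.37 CPM in cKO 1, 2 and 3, a log2 difference of 2.88 (SE 0.60), and had an adjusted p of 0.0680 in edgeR and 0.0248 with the block.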

How the data were processed

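RNA from laser-captured IEE of the MM1 was sequenced in 3 control and 3 cKO libraries at E18.5, and groups were taken from the sample titles. The submitters' processing notes list BWA 0.7.12, Picard 2.6.0 and StringTie without their roles, and the genome build, counting program and strand setting are not given in the sources used here. The deposited estimated counts are the authors' reads assigned to each gene, not normalised (10.9% to 11.5% of values in a library were not whole), the deposited TPM values are the authors' length-scaled levels, and the deposited FPKM values and group means, also made by the authors, entered no test.

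Estimated counts were rounded, and edgeR 4.0.16 in R 4.3.3 was used with filterByExpr, TMM scaling (factors 0.950 to 1.03) and a robust quasi-likelihood fit over all 14131 genes kept. CPM are on these scaled libraries, and tests are two-sided. The study names a criterion but no test. Alternatives were DESeq2 1.42.0, limma 3.58.1 (voom, and log2 of TPM plus 1 or 0.1), other scalings and filters, each library left out, and the replicate number as a block. Deviations of same-numbered libraries from their group means correlated at 0.135, 0.324 and 0.499. Differently numbered libraries were not compared in this way, so these values cannot show pairing, and the block is an alternative only. Scripts were tested on simulated data. No 2 libraries held the same values.

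The members and lists were chosen with earlier results of these data known. Named were Kdf1, members called by edgeR with or without block or by DESeq2, members with a group mean of at least 5 CPM, Cxcl12, Cxcr4, Ackr3 and Cxcl14, and called genes of the lists (up to 4 per network list, 2 per marker list). All further members, and the GC box and TATA box letters, were described after their values were seen. No protein sequences were used here. The values of 1 untested member are not reported here, though it is included in the counts and sums over members.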

Additional observations from a re-analysis of the deposited data

How the results depend on the processing

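The count of chemokine members past the criterion, 0 in edgeR, stayed at 0 under the other scalings, filters, limma fits and with no fold limit. It was 3 in DESeq2, 2 with the replicate block, 6 with an unadjusted p of at most 0.05 and 3 with an adjusted p of at most 0.1. With 1 library left out it ranged from 0 to 1, the 1 being *Cxcl12* without cKO 3. The count of network genes, 0 in edgeR, was 15 in DESeq2, 10 with the replicate block, 16 with an unadjusted p of at most 0.05, 7 with an adjusted p of at most 0.1, and 0 to 2 with a library left out (2 without cKO 3). Of all genes, 61 passed in edgeR (20 higher, 41 lower), 1038 in DESeq2 (757 higher, 281 lower), 860 with the replicate block (588 higher, 272 lower), 7 with DESeq2 size factors (1 higher), 9 with library size alone (2 higher), 103 without a filter, 6 with at least 10 counts in every library, 6 in limma-voom (0 higher), 16 in limma on log2(TPM + 1), 1372 with an unadjusted p of at most 0.05, 669 with an adjusted p of at most 0.1, and 1 to 465 with a library left out. That upper value came without cKO 3, 16 passed without control 2, and 1 without each of the others. The split by direction thus changed with the fit. These causes were not tested.

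The sign of *Ackr3* reversed, to 0.0069 in DESeq2, 0.017 with DESeq2 size factors, 0.060 with library size alone, 0.037 with upper quartile scaling, 0.013 with at least 10 counts in every library, and 0.048 in both limma fits on TPM, and it ranged from -0.16 to 0.21 with a library left out. *Ccl27b* ranged from -0.036 to 0.20 in those fits. Of 643 values over 41 named genes, 558 kept direction and call, 64 gained a call, 9 lost one, all for *Ltf*, and 12 reversed. Beyond the calls given, the replicate block changed no other member's call. With 3 libraries a group and levels of a few counts, depth limits what can be said of the 35 untested members.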
